A study of Mus musculus with 4 samples.

Results

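The gene described here is Prnp, which encodes the cellular prion protein, in the nuclei of mouse hippocampus. It was found by its symbol in the list of 27998 genes, where exactly 1 row carries it (ENSMUSG00000079037), and its level was followed in every library and in every cell class named by marker genes. Single-nucleus RNA was counted as UMIs (unique molecular identifiers, each standing for 1 captured RNA molecule) with a droplet method that reads the 3′ end of transcripts. There were 4 libraries, 1 per genotype: P301S/EKO, P301S, EKO and WT. P301S/EKO mice carried a P301S tau transgene and lacked Apoe, P301S mice carried the transgene with Apoe present, EKO mice lacked Apoe only, and WT mice had neither change. All mice were of strain B6 and 9 months old, and the hippocampi of 7 mice (8 for P301S) were pooled before nuclei were isolated. No agent was given in any group according to the labels, and the labels name neither the transgenic line nor the promoter of the transgene. With 1 pool per genotype there were no replicates, and no test between genotypes was made. Intervals given here are 95% and cover counting error only, not the spread between mice.

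The prion protein is a glycoprotein held on the outer cell surface by a glycosylphosphatidylinositol (GPI) anchor, made by neurons and glia throughout the brain and best known as the protein that misfolds in prion diseases. The whole protein is encoded in the last exon of the gene. Transgenes for brain proteins are often placed in a cassette built from mouse Prnp, which keeps its promoter, its first exons and its 3′ untranslated region and puts another coding sequence in place of the prion protein's. A widely used P301S tau line was made with such a cassette. Where it is present, a transcript of the cassette ends in Prnp sequence and is counted as Prnp by a method that reads 3′ ends, so native and cassette transcripts cannot be told apart in these counts.

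Prnp lies on the plus strand of chromosome 2 from 131909928 to 131938429 (GRCm38, which is mm10, the build named in the submitters' processing notes; GENCODE vM21). Its protein-coding transcript has 3 exons, at 131909928 to 131910003, 131912195 to 131912292 and 131936420 to 131938429. The coding sequence of 762 bases, without its stop codon, starts at 131936430 and lies wholly in exon 3, and the 3′ untranslated region follows it to the end of that exon. Prnd, the gene of the related protein doppel, lies downstream on the same strand at 131950861 to 131956130 and held 0 UMIs in each of the 4 libraries. The annotation also has a gene named Prn, from 131909957 to 131956130 on the same strand, which overlaps both and was not used here.

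The promoter is shown because it is the stretch that a Prnp cassette would share with the native gene. The 250 bases before the annotated start, chr2:131909678-131909927 on the plus strand (RefSeq, GRCm38.p6), read as follows, with capitals marking matches to a GC box with the letters GGGCGG, to CCAAT as the CCAAT box, or to TATAAA as the TATA box, on either strand.
Prnp promoter: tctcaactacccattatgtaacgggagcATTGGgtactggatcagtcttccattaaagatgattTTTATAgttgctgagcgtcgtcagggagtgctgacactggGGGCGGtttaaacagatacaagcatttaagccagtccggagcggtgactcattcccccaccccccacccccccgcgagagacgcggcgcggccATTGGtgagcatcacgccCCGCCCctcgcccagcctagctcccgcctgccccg
The window held 2 GC boxes, 2 CCAAT boxes and 1 TATA box match, and no match overlapped another. The matches nearest the start were a CCAAT box 53 to 49 bases before it and a GC box 35 to 30 bases before it, both on the minus strand, while the TATA box match lay 186 to 181 bases before it, also on the minus strand. Among 32851 promoter windows of the same length, 32.7% held a GC box, 33.8% a CCAAT box and 12.4% a TATA box match. The Prnp window was 58.8% G or C with 17 CG dinucleotides, against medians of 52.4% and 6.0 over all windows. These matches describe letters only and are not shown to be bound.

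The files held between 3156 and 6767 barcodes and between 8369762 and 14251675 UMIs per library, and 5274 nuclei were kept for P301S/EKO, 2860 for P301S, 5199 for EKO and 5234 for WT. The libraries without Apoe were shallower, with a median of 1421 UMIs per kept nucleus in P301S/EKO and 1444 in EKO, against 2142 in P301S and 1899.5 in WT. Of 21794 distinct barcode sequences, 253 occurred in more than 1 library. Apoe followed the labels, at 19.6 CPM (UMIs of a gene per 1000000 UMIs) over all kept nuclei in P301S/EKO, 6402 in P301S, 16.4 in EKO and 1932 in WT. The EKO library stood apart in holding pituitary hormone transcripts, with Gh at 398 CPM and Prl at 168 CPM against at most 0.677 CPM in any other library, and 9.00% of its nuclei had a UMI of Gh, Prl or Cga. Leaving those nuclei out moved the Prnp ratio of P301S/EKO over EKO to 1.67, against 1.68 with them. Nuclei fell into 18 clusters, and 16 of them took the name of a marker set. The markers of each of the 11 main classes were all detected in every library that had nuclei of the class, but not at like levels. The 8 dentate granule markers summed to 1314 CPM in P301S/EKO, 558 in P301S, 1481 in EKO and 1158 in WT, and the 12 microglia markers to 9250.2, 6879.5, 8538 and 4198 CPM in the same order. The dentate granule sum was thus lowest in P301S and the microglia sum in WT, as were the astrocyte, oligodendrocyte and precursor sums, and the part of these differences in the Prnp ratios of a class was not tested. The other 2 clusters, led by Dcn and Dlk1 and by Ndnf and Lamp5, stayed unnamed and were counted with the neurons. A cluster is called led by genes chosen from its 10 leading genes, which are not always the first. Gh was also among those 10 in the Dcn and Dlk1 cluster.

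Prnp was higher in both P301S libraries. Over all kept nuclei it stood at 738 CPM in P301S/EKO, 618 in P301S, 440.2 in EKO and 375 in WT, from 6547, 4610, 3895 and 4492 UMIs. Both P301S libraries were above both libraries without the transgene, and none of the 4 counting intervals overlapped another. The ratio of P301S over WT was 1.65 (1.58 to 1.72), and that of P301S/EKO over EKO was 1.68 (1.61 to 1.75). Among all genes tested, 16.5% were past a 1.5-fold excess in P301S compared with WT and 5.2% in P301S/EKO compared with EKO. The median log2 ratio of all genes was 0.20 in the first comparison and 0.01 in the second, and relative to that median the Prnp ratio was 1.43 in the first and 1.67 in the second. Pools that did not differ in the transgene also differed in Prnp: EKO over WT was 1.17 (1.13 to 1.23), and P301S/EKO over P301S was 1.19 (1.15 to 1.24).

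Neurons as a whole held Prnp at 721 CPM in P301S/EKO, 625 in P301S, 423 in EKO and 360 in WT. The ratio in neurons was 1.74 (1.65 to 1.83) for P301S over WT and 1.70 (1.63 to 1.78) for P301S/EKO over EKO. Nuclei outside neurons held it at 808 CPM in P301S/EKO, 603 in P301S, 558 in EKO and 419 in WT. There the ratio was 1.44 (1.33 to 1.55) for P301S over WT and 1.45 (1.32 to 1.59) for P301S/EKO over EKO. In each library except P301S the level outside neurons was above that in neurons. The genes at least 1.5-fold higher made up 13.3% in neurons and 13.8% outside them for P301S over WT, and 3.92% and 4.85% for P301S/EKO over EKO.

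Among the 10 classes with a Prnp value in both comparisons, the ratio was above 1 in all 10 in each. P301S over WT also had a value for the choroid plexus epithelium-like class, which makes 11 classes, with ratios from 1.41 to 2.19, of which 8 were at least 1.5-fold and 9 had an interval wholly above 1. P301S/EKO over EKO gave ratios from 1.36 to 2.01, of which 7 were at least 1.5-fold and 9 had an interval wholly above 1. The share of all genes at least 1.5-fold higher within these classes ran from 8.51% to 24.4% for P301S over WT and from 4.51% to 14.4% for P301S/EKO over EKO. There were 4 classes past 1.5-fold in both comparisons: dentate granule, CA2 or CA3, subicular or cortical excitatory, and inhibitory neurons. The CA2 or CA3 and the subicular or cortical excitatory classes were so under all 12 alternatives. Dentate granule neuron-like nuclei dropped out under median-of-ratios scaling, at 1.44 for P301S over WT. Inhibitory neuron-like nuclei dropped out with each nucleus weighted equally, at 1.4996 for P301S/EKO over EKO, and with free RNA subtracted. Other classes joined under single alternatives: CA1 neuron-like nuclei with each library clustered alone, oligodendrocyte-like nuclei with doublets kept, astrocyte-like and oligodendrocyte precursor-like nuclei among those of 1200 to 4000 UMIs, and endothelial cell-like nuclei with pituitary-positive nuclei left out. Of all genes measured in both comparisons, 0.988%, 1.11%, 0.845% and 0.624% were past 1.5-fold in both in these same 4 classes.

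**Figure D1:**
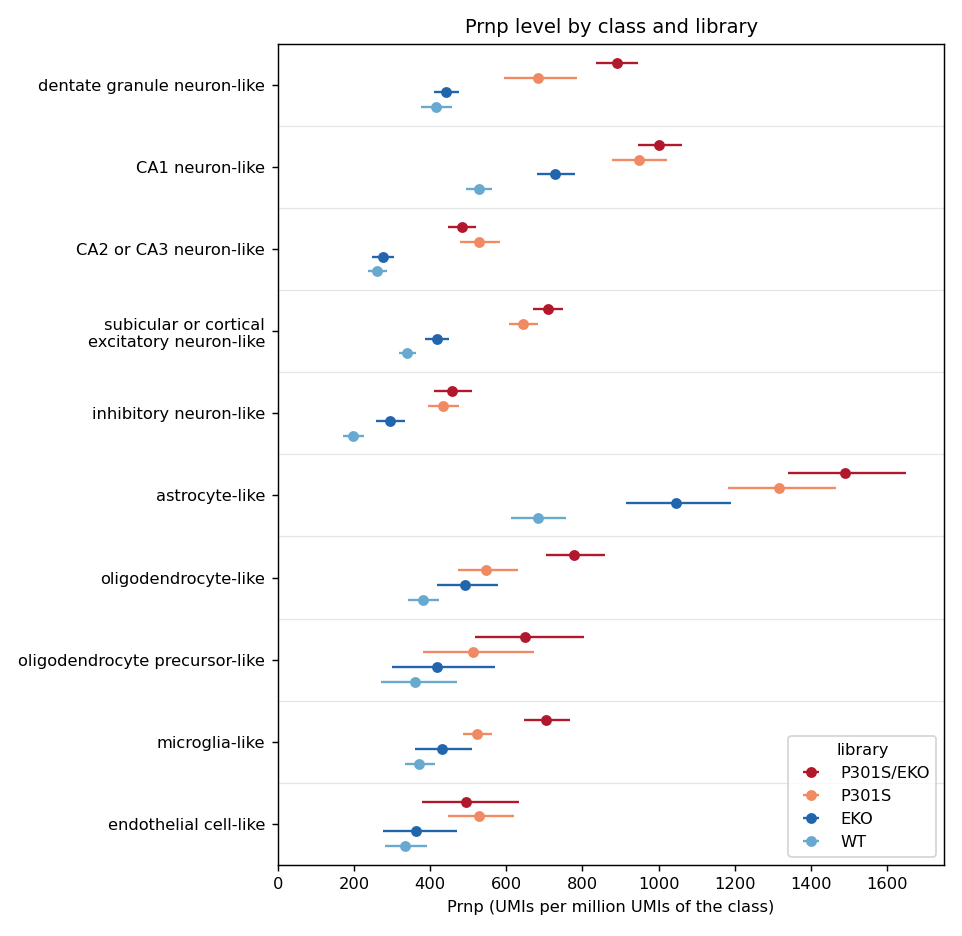
Prnp level (x axis, CPM of the class) in 10 cell classes (y axis) for the libraries P301S/EKO, P301S, EKO and WT, top to bottom within a class. Points are pooled libraries and bars are 95% Poisson intervals for counting error. With nuclei that hold mixed RNA included, the points of both P301S libraries lie above EKO and WT in every class, from 458 and 433 CPM in inhibitory neuron-like nuclei to 1488 and 1317 CPM in astrocyte-like nuclei.

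The dentate granule neuron-like class, the principal cells of the dentate gyrus, held Prnp at 889.6 CPM in P301S/EKO (983 nuclei), 684 in P301S (155 nuclei), 442 in EKO (1347 nuclei) and 415 in WT (652 nuclei). Levels in EKO and WT overlapped here, and both P301S libraries stood above them. The ratio was 1.65 (1.39 to 1.95) for P301S over WT, where 13.9% of genes were at least 1.5-fold higher. It was 2.01 (1.83 to 2.22) for P301S/EKO over EKO, where 5.65% of genes were. EKO over WT was 1.06 (0.944 to 1.201).

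CA1 neuron-like nuclei, the pyramidal cells that carry the main output of the hippocampus, had the highest level of any named neuron class in each library. Prnp was at 1002 CPM in P301S/EKO, 947 in P301S, 729 in EKO and 528 in WT, and only the levels of the 2 P301S libraries overlapped. The ratio was 1.79 (1.62 to 1.98) for P301S over WT and 1.37 (1.26 to 1.504) for P301S/EKO over EKO. EKO over WT was 1.38 (1.26 to 1.52) in this class, about as large as P301S/EKO over EKO. The shares of genes at least 1.5-fold higher were 13.3% and 4.51% in the comparisons of P301S with WT and of P301S/EKO with EKO. Clustering each library alone gave 1.51 for P301S/EKO over EKO.

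CA2 or CA3 neuron-like nuclei had the lowest Prnp level of the 10 classes in EKO and the second lowest in WT. Prnp was at 483 CPM in P301S/EKO, 528 in P301S, 276 in EKO and 262 in WT. The 2 P301S libraries overlapped each other, as did EKO and WT, with no overlap between the pairs. The ratio was 2.02 (1.76 to 2.32) for P301S over WT and 1.75 (1.54 to 2.00) for P301S/EKO over EKO, and EKO over WT was 1.05 (0.914 to 1.21). The genes at least 1.5-fold higher made up 14.1% and 4.91% of those measured.

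Subicular or cortical excitatory neuron-like nuclei, the largest named class in 3 of the 4 libraries, held Prnp at 709.5 CPM in P301S/EKO, 645 in P301S, 418 in EKO and 339.6 in WT. The ratio was 1.90 (1.74 to 2.08) for P301S over WT and 1.70 (1.55 to 1.87) for P301S/EKO over EKO, with background shares of 8.84% and 5.73%. EKO over WT was 1.23 (1.11 to 1.36). This class joined 5 clusters, each described here by genes chosen from its 10 leading genes. Pituitary hormone genes were also among those 10: Cga came first, with Gh, in the Foxp2 and Ctgf cluster. Prl came first, again with Gh, in the Fos and Npas4 cluster. In the cluster led by Vwc2l and Cux2, of which Cux2 is a transcription factor of upper cortical layers, Prnp was at 632 CPM in P301S/EKO, 552 in P301S, 421 in EKO and 336 in WT. In the cluster led by Foxp2 and Ctgf, genes of deep cortical layers, it was at 811, 782, 449 and 379.9 CPM in the same order of libraries. P301S over WT was 1.64 in the Vwc2l and Cux2 cluster and 2.06 in the Foxp2 and Ctgf cluster, and P301S/EKO over EKO was 1.502 and 1.81. The cluster led by Ly6g6e and Nxph3 had Prnp at 659 CPM in P301S/EKO, 672 in P301S, 283 in EKO and 289 in WT, with a ratio of 2.33 in each comparison. Among the 800 genes measured in both comparisons in that cluster, Prnp had the highest value of the smaller of its log2 ratios. The level that free RNA would give there, as estimated below, was 279 CPM in EKO and 230 in WT. Both lay inside the counting intervals (211 to 371 and 216 to 378), so these ratios rest on levels that cannot be told apart from free RNA. The cluster led by Nts and Fn1, genes of the subiculum, had Prnp at 819 CPM in P301S/EKO, 923 in P301S, 509 in EKO and 324 in WT, with ratios of 2.84 (2.15 to 3.76) and 1.61 (1.24 to 2.10). EKO over WT was 1.57 (1.17 to 2.10) in that cluster, about as large as P301S/EKO over EKO. The small cluster led by Fos and Npas4, immediate early genes of neuronal activity, held 126 nuclei and only 19 to 70 Prnp UMIs per library, and its ratios were 1.36 (0.741 to 2.56) and 2.83 (1.83 to 4.46).

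Inhibitory neuron-like nuclei, the local GABA-releasing interneurons, had the lowest Prnp level of the 10 classes in P301S/EKO, P301S and WT. Prnp was at 458 CPM in P301S/EKO, 433 in P301S, 294 in EKO and 198 in WT. The ratio of P301S over WT, 2.19 (1.85 to 2.61), was the highest of the 11 classes, and 8.51% of genes were at least 1.5-fold higher there. For P301S/EKO over EKO the ratio was 1.56 (1.31 to 1.85), with a background of 4.52%, and EKO over WT was 1.48 (1.22 to 1.80). Subclusters of this class were named by marker genes of interneuron types, but not all took a name. An unnamed one led by Ebf1 and Tcf7l2 held 18 nuclei in P301S/EKO, 8 in P301S, 29 in EKO and 51 in WT. Another unnamed one, led by Pcp2 and Car12, held 15, 30, 15 and 51 nuclei in the same order. Both were counted in the class, and their part in its Prnp levels and ratios was not tested. Sst interneuron-like nuclei held Prnp at 547 CPM in P301S/EKO, 545 in P301S, 310.0 in EKO and 198 in WT, and the ratios were 2.75 (1.95 to 3.94) for P301S over WT and 1.77 (1.29 to 2.44) for P301S/EKO over EKO. Genes at least 1.5-fold higher made up 9.48% and 7.85% in this type, 8.78% and 4.91% in the Pvalb type, 6.78% and 5.5% in the Vip or Cnr1 type and 8.74% and 5.38% in the Lamp5 or Ndnf type. Pvalb interneuron-like nuclei, the fast-spiking type, had the lowest value of the 4 interneuron types in each library, at 360.4 CPM in P301S/EKO, 328 in P301S, 223 in EKO and 145 in WT, with ratios of 2.26 (1.55 to 3.38) and 1.62 (1.15 to 2.28). In both types the values of the P301S libraries were above those of EKO and WT, and EKO was above WT. The counting intervals of EKO and WT overlapped in both types, and those of P301S (268 to 398) and EKO (171 to 285) in the Pvalb type. Vip or Cnr1 interneuron-like nuclei held Prnp at 439 CPM in P301S/EKO, 395 in P301S, 346 in EKO and 156 in WT, so that P301S over WT was 2.53 (1.64 to 4.04), EKO over WT 2.22 (1.38 to 3.65) and P301S/EKO over EKO 1.27 (0.885 to 1.83). Lamp5 or Ndnf interneuron-like nuclei, 24 to 26 per library, gave 13 to 25 Prnp UMIs each and ratios of 1.86 (0.915 to 3.95) and 1.41 (0.740 to 2.75). Of the 7 Lamp5 or Ndnf markers, 1 to 3 were at 0 in each library.

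Both unnamed clusters counted with the neurons showed the same direction. The cluster led by Dcn and Dlk1 held Prnp at 746 CPM in P301S/EKO, 663 in P301S, 368 in EKO and 393 in WT, with ratios of 1.68 (1.40 to 2.02) for P301S over WT and 2.03 (1.78 to 2.32) for P301S/EKO over EKO. The cluster led by Ndnf and Lamp5 held it at 568 CPM in P301S/EKO, 514 in P301S, 343 in EKO and 205 in WT, with ratios of 2.51 (1.62 to 4.03) and 1.65 (1.15 to 2.40).

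**Figure D2:**
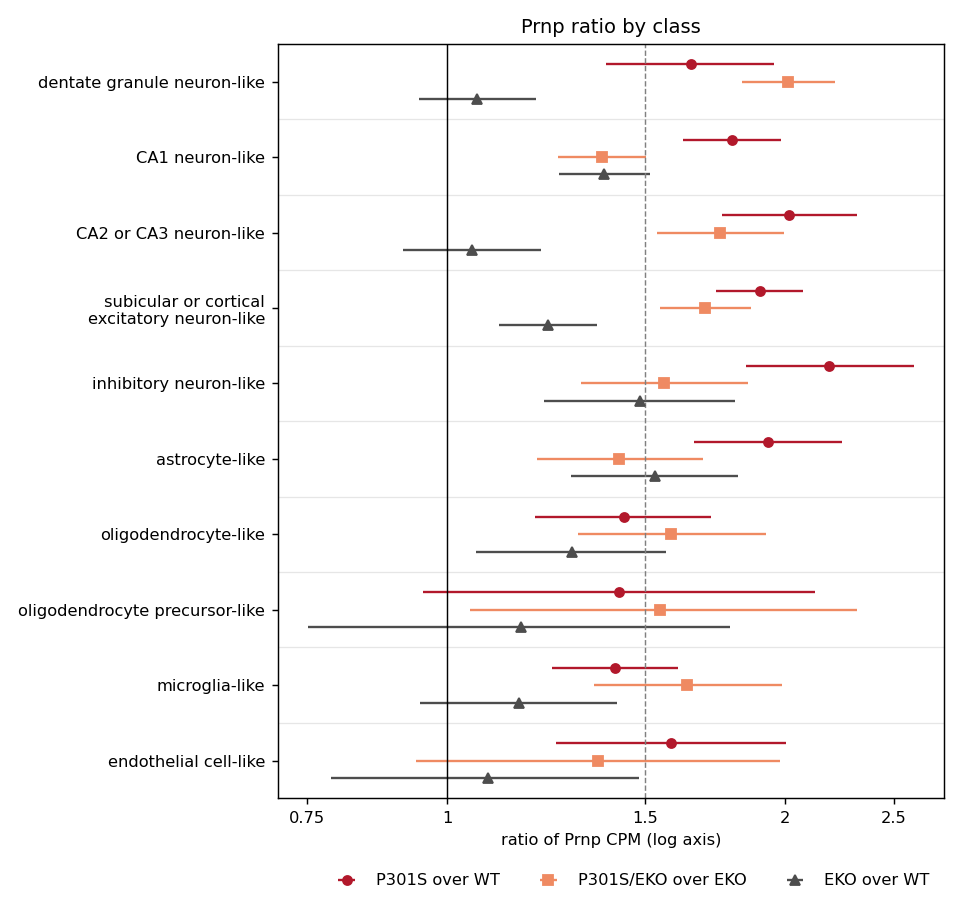
Ratio of Prnp CPM (x axis, log scale) in 10 cell classes (y axis) for P301S over WT (circles), P301S/EKO over EKO (squares) and EKO over WT (triangles). Bars are 95% intervals for counting error, the solid line marks 1 and the dashed line 1.5. In dentate granule and CA2 or CA3 neuron-like nuclei EKO over WT lies at 1.06 and 1.05, below both P301S ratios; in astrocyte-like nuclei it is 1.53, between P301S/EKO over EKO at 1.42 and P301S over WT at 1.93.

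Astrocyte-like nuclei, the glia that contact synapses and vessels, had the highest Prnp level of the 10 classes in all 4 libraries. Prnp was at 1488 CPM in P301S/EKO (1339 to 1650), 1317 in P301S (1181 to 1464), 1045 in EKO (913 to 1191) and 682 in WT (613 to 758). WT stood apart below the other 3 libraries, the levels of the 2 P301S libraries overlapped, and P301S and EKO overlapped narrowly. The ratio was 1.93 (1.66 to 2.25) for P301S over WT, where 19% of genes were at least 1.5-fold higher, and 1.42 (1.203 to 1.69) for P301S/EKO over EKO, where 14.4% were. EKO over WT was 1.53 (1.29 to 1.82) in this class, where 11.8% of genes were at least 1.5-fold higher. In CPM the astrocyte-like class had the largest difference of the 10 classes for P301S over WT, at 635 (479 to 797), and for P301S/EKO over EKO its 443 (235 to 652) was close to the 448 (385 to 512) of dentate granule neuron-like nuclei. The WT class was also the one with most neuronal RNA: a list of 9 neuronal transcripts stood at 11846 CPM in WT astrocyte-like nuclei, against 4995 in P301S/EKO, 5349 in P301S and 5046 in EKO. Meg3 alone made up most of that list, at 9822 CPM in WT, 3889 in P301S/EKO, 4370 in P301S and 3700 in EKO. Of WT astrocyte-like nuclei 19.9% were mixed, meaning that their share of neuronal UMIs was above 50% of the CA1 median, against 2.99% in P301S/EKO, 6.67% in P301S and 1.00% in EKO. In the nuclei that were not mixed Prnp was at 1533 CPM in P301S/EKO, 1287 in P301S, 1049 in EKO and 719.6 in WT.

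Oligodendrocyte-like nuclei, the myelin-forming glia, held Prnp at 779 CPM in P301S/EKO, 548 in P301S, 492 in EKO and 381 in WT. P301S/EKO was above the other 3 libraries, and the levels of P301S and EKO overlapped. The ratio was 1.44 (1.198 to 1.72) for P301S over WT and 1.58 (1.31 to 1.92) for P301S/EKO over EKO, with background shares of 9.19% and 7.62%. Mixed nuclei made up 56.7% of the class in P301S/EKO, 65.0% in P301S, 49.7% in EKO and 67.4% in WT. In the nuclei that were not mixed Prnp was at 753 CPM in P301S/EKO, 395 in P301S, 424 in EKO and 308 in WT. The P301S level came from only 29 UMIs, and its interval (264 to 567) overlapped that of EKO (318 to 555). Oligodendrocyte precursor-like nuclei, which can give rise to oligodendrocytes, were few, with 40 to 83 Prnp UMIs per library. They held it at 649 CPM in P301S/EKO, 512 in P301S, 419 in EKO and 360.4 in WT, with ratios of 1.42 (0.951 to 2.13) and 1.55 (1.05 to 2.32) beside backgrounds of 10.1% and 6.59%, of which only the one for P301S/EKO over EKO excludes 1 within counting error. Mixed nuclei made up 24.3%, 42.9%, 14.8% and 58.8% of the precursor-like class in the same order of libraries. In its other nuclei Prnp was at 713, 291, 388 and 220 CPM, from only 12 UMIs in P301S and 10 in WT, so P301S was below EKO there. The intervals of P301S (150 to 509) and EKO (253 to 568) overlapped.

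Microglia-like nuclei, the resident immune cells of the brain, held Prnp at 704 CPM in P301S/EKO, 524 in P301S, 431 in EKO and 371 in WT. The levels of EKO and WT overlapped, those of P301S and EKO overlapped narrowly, and P301S/EKO was above all 3 others. The ratio was 1.41 (1.24 to 1.605) for P301S over WT and 1.63 (1.35 to 1.99) for P301S/EKO over EKO, with background shares of 13.4% and 8.24%. Mixed nuclei were common in this class, at 56.3% in P301S/EKO, 66.2% in P301S, 45.7% in EKO and 78.8% in WT. In the microglia-like nuclei that were not mixed, Prnp was at 731 CPM in P301S/EKO, 456 in P301S, 385 in EKO and 369.6 in WT, and their P301S over WT ratio was 1.23. Mixed microglia-like nuclei held Prnp at 693 CPM in P301S/EKO, 541 in P301S, 467 in EKO and 372 in WT. The 9 neuronal transcripts stood between 25499.6 and 29459.9 CPM in mixed nuclei of the 4 libraries and between 8119 and 11602 CPM in the others.

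Endothelial cell-like nuclei, which line the vessels, held Prnp at 495 CPM in P301S/EKO, 529 in P301S, 363 in EKO and 334 in WT. The ratio was 1.58 (1.251 to 2.00) for P301S over WT, with a background of 8.6%, and 1.36 (0.938 to 1.98) for P301S/EKO over EKO, with a background of 13.8%. Choroid plexus epithelium-like nuclei, which secrete cerebrospinal fluid, had the lowest Prnp values of all named classes in the libraries that had them, but from few UMIs. There were 16 such nuclei in P301S/EKO, 44 in P301S, 0 in EKO and 11 in WT, with 7, 19 and 3 Prnp UMIs in the libraries that had any, or 329 (132 to 677), 235 (142 to 367) and 108 (22.3 to 316) CPM. In P301S/EKO and WT the intervals overlapped those of inhibitory neuron-like nuclei. They also held the level that free RNA would give, as estimated below, of 218 CPM in P301S/EKO and 191 in WT. In P301S that level was 116 CPM, below the interval. P301S over WT was 2.18 (0.641 to 11.5) in these few nuclei, where 24.4% of genes were at least 1.5-fold higher, and no direction was detectable at this depth.

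EKO over WT, where neither library has the transgene, had ratios from 1.05 to 1.53 over the 10 classes, and 5 of them had an interval wholly above 1. P301S/EKO over P301S, where both have it, had ratios from 0.914 to 1.42 over 11 classes.

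Within a library, the order of the classes was much the same with and without the transgene. Astrocyte-like nuclei came first and CA1 neuron-like nuclei next in all 4 libraries, and the intervals of these 2 classes did not overlap. In WT they were followed by dentate granule neuron-like (415 CPM), oligodendrocyte-like (381), microglia-like (371), oligodendrocyte precursor-like (360.4), subicular or cortical excitatory neuron-like (339.6) and endothelial cell-like (334) nuclei, each overlapping the next. CA2 or CA3 neuron-like (262) and inhibitory neuron-like nuclei (198) came last in WT and differed from each other beyond counting error. In P301S/EKO the dentate granule neuron-like class took the third place with a level that overlapped that of CA1 neuron-like nuclei, and every class from there on overlapped its neighbour.

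Part of each of these levels can come from free RNA in the droplets and from nuclei that stuck together, so the level that such RNA alone would give was set beside each. Outside neurons it was taken as the level of the 9 neuronal transcripts in the class, as a share of their level over all nuclei, times the Prnp level of all nuclei. Meg3 made up most of the neuronal list, at 27594 of 30754 CPM over all nuclei of P301S/EKO, so the level outside neurons leans on 1 transcript. Inside neurons 14 glial transcripts were used in the same way. Every such transcript outside its own cells is thus treated as foreign, which pushes the estimate up. The estimate also takes free RNA to have the make-up of all nuclei together, which was not tested, so it is not a proven upper limit. In astrocyte-like nuclei it was 119.9 CPM in P301S/EKO, 108 in P301S, 64.0 in EKO and 144 in WT, far below the Prnp level of each library. In CA1 neuron-like nuclei it was 303, 204, 149 and 126 CPM, again well below. In microglia-like nuclei it was 536 CPM in P301S/EKO, 440.4 in P301S, 268 in EKO and 321 in WT, beside measured levels of 704, 524, 431 and 371 CPM, and it lay below the counting interval of each. In inhibitory neuron-like nuclei of WT it was 181 CPM, inside the interval of the measured level (171 to 228), whereas it was 327 CPM in P301S/EKO, 239 in P301S and 172 in EKO, below the measured level of each. The WT levels were 145 CPM in Pvalb and 156 CPM in Vip or Cnr1 interneuron-like nuclei, below their free-RNA levels of 187 and 176 CPM. These free-RNA levels lay inside the counting intervals, so how much of either WT level was background could not be told. In WT the same held for Sst (165 CPM) and Lamp5 or Ndnf (134 CPM) interneuron-like nuclei and the Ndnf and Lamp5 cluster (188 CPM). It also held for Pvalb interneuron-like nuclei in P301S/EKO (293 CPM) and EKO (173 CPM), and for the Vip or Cnr1 type in P301S/EKO (388 CPM). Ratios that use any of these levels therefore rest on a level that cannot be told apart from free RNA. These are P301S over WT and EKO over WT in these interneurons, and P301S/EKO over EKO in the Pvalb and Vip or Cnr1 types.

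The free-RNA level was then taken off each class, in one form with the rest divided by the share of RNA left in the class, and in another without that division. The direction of P301S over WT in 2 glial classes depends on the division. With it the ratio fell to 0.823 in microglia-like and 0.873 in oligodendrocyte-like nuclei, and without it the ratio was 1.65 and 1.32. Outside neurons as a whole P301S over WT was 1.13 with the division and 1.54 without, and P301S/EKO over EKO was 1.37 and 1.03. In neurons P301S over WT was 1.80 with the division and 1.89 without, and P301S/EKO over EKO was 1.71 and 1.53. Inhibitory neuron-like nuclei moved apart between the comparisons: P301S over WT became 9.59 with the division, and P301S/EKO over EKO became 1.18, or 1.08 without it, below 1.5-fold. In astrocyte-like nuclei the ratio with the division was 1.68 for P301S over WT and 1.42 for P301S/EKO over EKO, and in endothelial cell-like nuclei 1.65 and 1.22. For P301S/EKO over EKO only 3 classes were then at least 1.5-fold in either form, against 7 before.

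**Figure D3:**
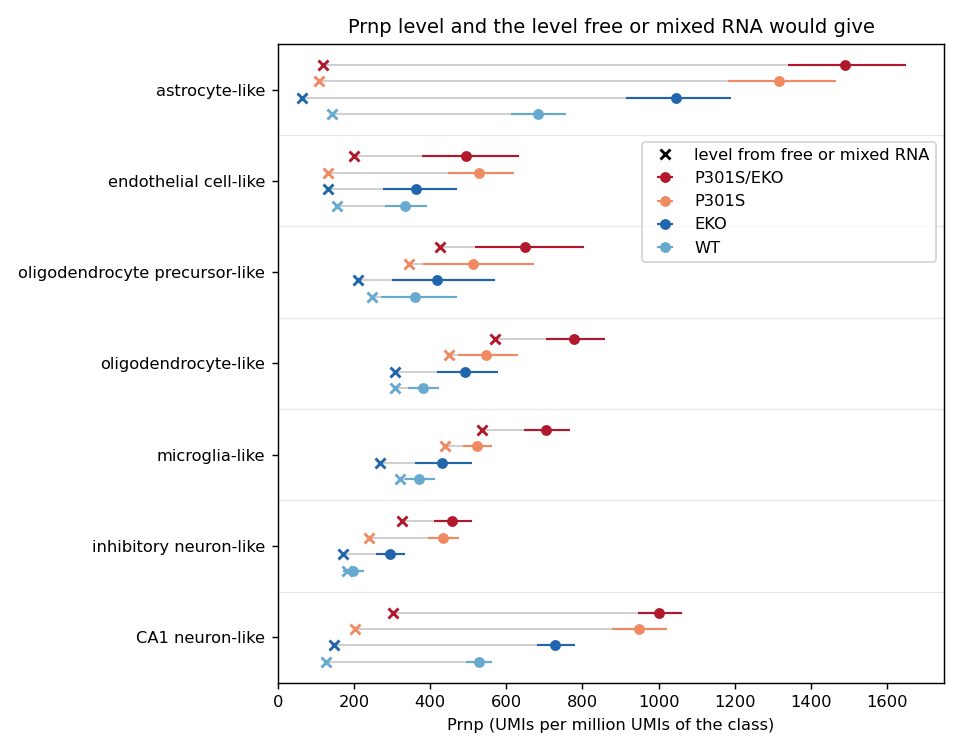
Prnp level (x axis, CPM of the class) in 7 cell classes (y axis) for the libraries P301S/EKO, P301S, EKO and WT, top to bottom within a class. Circles are measured levels with 95% Poisson intervals, and crosses are the estimate of what free or mixed RNA would give. The gap is widest in astrocyte-like nuclei (1488 against 119.9 CPM in P301S/EKO) and smallest in inhibitory neuron-like nuclei of WT (198 against 181 CPM).

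Foreign RNA inside neurons also differed between libraries. Of the 14 glial transcripts, 10 were at least 1.5-fold higher in neurons for P301S over WT, where 13.3% of genes were, and 10 for P301S/EKO over EKO, where 3.92% were. C1qa, a complement gene of microglia, was at 58.3 CPM in neurons of P301S/EKO, 146 in P301S, 21.0 in EKO and 20.5 in WT. Mbp, a myelin gene, was at 547 CPM in P301S/EKO, 464 in P301S, 125 in EKO and 293 in WT. Their part in the Prnp ratio of neurons was not tested beyond the subtraction above.

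The share of nuclei with at least 1 Prnp UMI depends on depth, so each nucleus was also thinned at random to 500 UMIs, which left out 0 nuclei. Before thinning, 64.4% of nuclei had a Prnp UMI in P301S/EKO, 68.9% in P301S, 49.1% in EKO and 51.9% in WT. After thinning it was 32.2% (30.9 to 33.5), 25.6% (24.0 to 27.3), 21.1% (19.98 to 22.2) and 16.8% (15.8 to 17.9), the same order of libraries as the CPM. In dentate granule neuron-like nuclei 60.3% had a Prnp UMI in P301S/EKO, 70.3% in P301S, 40.8% in EKO and 45.5% in WT, and thinned shares were 34.8%, 30.3%, 19.9% and 16.9%. Thinned shares of CA1 neuron-like nuclei were 39.9% in P301S/EKO, 34.9% in P301S, 34.7% in EKO and 22.1% in WT, so that EKO lay beside P301S there and WT alone was low. In astrocyte-like nuclei 78.1% had a Prnp UMI in P301S/EKO, 87.5% in P301S, 61% in EKO and 66.0% in WT, and thinned shares were 53.7%, 47.5%, 38% and 25.9%. Thinned shares of microglia-like nuclei were 31.4% in P301S/EKO, 20.7% in P301S, 20% in EKO and 18.3% in WT, where the intervals of P301S (16.4 to 25.6) and WT (13.3 to 24.2) overlapped. In Pvalb interneuron-like nuclei 19.4% held Prnp after thinning in P301S/EKO, 16.9% in P301S, 12.3% in EKO and 2.40% in WT.

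Depth was also held alike by splitting neurons by their UMI total. In neurons of 1200 to 2000 UMIs Prnp was at 784 CPM in P301S/EKO, 644 in P301S, 495 in EKO and 419.7 in WT. In those of 2000 to 4000 UMIs it was at 622, 652, 343 and 343 CPM in the same order, and in those of 4000 or more at 475, 546, 273 and 285 CPM. Both P301S libraries were above EKO and WT in each of the 3 ranges, and the CPM of Prnp was lower in deeper nuclei of every library except between the first 2 ranges of P301S. Per 1000 UMIs of the 9 neuronal transcripts, mostly Meg3, neurons held 21.3 Prnp UMIs in P301S/EKO, 16.9 in P301S, 11.4 in EKO and 10.5 in WT. Those transcripts varied between neuron classes, from 16577 CPM in dentate granule neuron-like to 42755 CPM in inhibitory neuron-like nuclei of P301S/EKO.

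The excess over all nuclei can be divided by class. The difference between 2 libraries was split into a within-class part, the difference in level times the mean share of UMIs that the class held, and a part from the change in that share. For P301S over WT the whole difference was 243 CPM, made of 279.7 CPM within classes and -36.4 CPM from class shares. Neurons gave 76.7% of the within-class part, and held 67.5% of UMIs in P301S and 74.6% in WT. Subicular or cortical excitatory neuron-like nuclei gave 68.3 CPM, CA1 neuron-like 52.0, CA2 or CA3 neuron-like 32.0, inhibitory neuron-like 25.6 and dentate granule neuron-like nuclei 16.9. Outside neurons, astrocyte-like nuclei gave 24.7 CPM, microglia-like 19.999, oligodendrocyte-like 10.4 and endothelial cell-like nuclei 7.22. Microglia-like nuclei held 18.2% of UMIs in P301S, against 8.11% in WT, with Prnp at 524 CPM in P301S and 371 in WT, beside 618 and 374.7 CPM over all nuclei.

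For P301S/EKO over EKO the whole difference was 298 CPM, of which 297 CPM arose within classes and 1.02 CPM from class shares. Neurons gave 84.4% of the within-class part, which lies between the shares of UMIs they held, 79.7% in P301S/EKO and 87.6% in EKO. Dentate granule neuron-like nuclei gave most, 71.6 CPM, followed by subicular or cortical excitatory neuron-like nuclei with 56.3, the Dcn and Dlk1 cluster with 38.5, CA1 neuron-like with 35.6 and CA2 or CA3 neuron-like nuclei with 31.1. Microglia-like nuclei gave 16.8 CPM, inhibitory neuron-like 14.02, oligodendrocyte-like 13.1 and astrocyte-like nuclei 11.5. Astrocyte-like nuclei had the highest level of all but held only 2.74% of UMIs in P301S/EKO and 2.44% in EKO. The dentate granule neuron-like class held 3.92% of UMIs in P301S, against 8.66% in WT, and 12.98% in P301S/EKO, against 19.0% in EKO. It held 155 of the 2860 nuclei of P301S, against 652 of 5234 in WT, with a median of 1792 UMIs per nucleus in P301S and 1418.5 in WT. In P301S/EKO it held 983 of 5274 nuclei, against 1347 of 5199 in EKO, with medians of 1115 and 1167 UMIs.

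**Figure D4:**
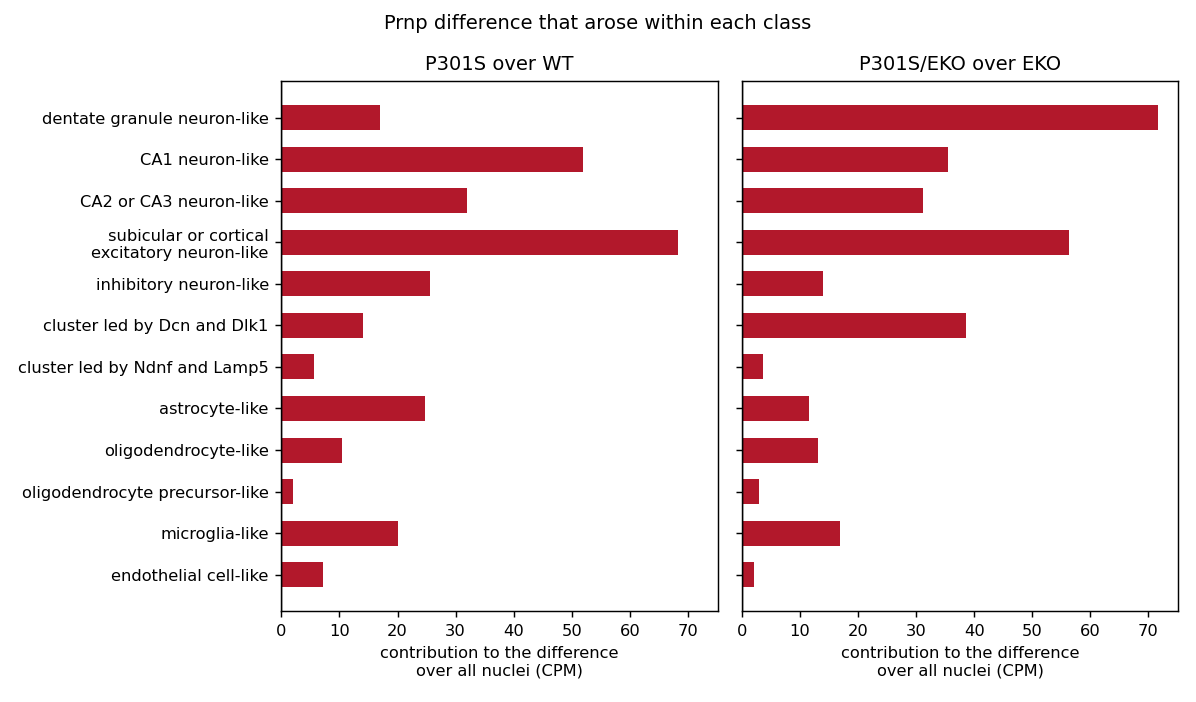
Part of the Prnp difference that arose within each class (x axis, CPM of all nuclei) by class or cluster (y axis), for P301S over WT on the left and P301S/EKO over EKO on the right. The choroid plexus class is not drawn. Subicular or cortical excitatory neuron-like nuclei gave the most in P301S over WT (68.3 CPM), and dentate granule neuron-like nuclei in P301S/EKO over EKO (71.6 CPM).

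Mapt, the mouse gene of tau, was followed as the gene whose human form the transgene carries. It stood at 206 CPM over all nuclei in P301S/EKO, 254 in P301S, 157 in EKO and 161 in WT. The ratio was 1.58 (1.48 to 1.68) for P301S over WT and 1.31 (1.23 to 1.41) for P301S/EKO over EKO, and EKO over WT was 0.976 (0.910 to 1.05). In neurons the ratio was 1.61 (1.49 to 1.75) and 1.29 (1.19 to 1.39). Class by class it was 1.69 and 1.59 in CA1 neuron-like nuclei, 1.204 and 1.28 in dentate granule neuron-like nuclei, and 1.44 and 0.908 (0.696 to 1.19) in microglia-like nuclei. Whether reads of human tau are counted as Mapt here was not tested.

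Genes near Prnp and of its family were read for the same shift in neurons. Of 9 such genes, 8 had enough UMIs for P301S over WT and 2 were at least 1.5-fold higher, beside 13.3% of all genes. Rassf2, a neighbour on the chromosome, was at 7.95 CPM in P301S and 4.58 in WT, and Slc23a2, a vitamin C transporter gene, at 39.7 CPM in P301S and 23.4 in WT, with ratios of 1.73 and 1.70. For P301S/EKO over EKO 7 had enough UMIs and only Rassf2 was past 1.5-fold, beside 3.92% of all genes, at 4.10 CPM in P301S/EKO and 2.71 in EKO (ratio 1.51, 0.834 to 2.79), while Slc23a2 had a ratio of 1.03. Outside neurons 7 had enough UMIs in each comparison. For P301S over WT 2 were at least 1.5-fold higher there and 1 lower, beside 13.8% and 4.82% of all genes, and for P301S/EKO over EKO 0 were higher and 1 lower, beside 4.85% and 5.11%. In neurons Sprn, which encodes the related protein shadoo, was at 51.1 CPM in P301S and 49.2 in WT. It was at 52.6 CPM in P301S/EKO and 53.9 in EKO. The median log2 ratio of the list in neurons was 0.28 and 0.04 in the 2 comparisons, beside 0.20 and -0.00 for all genes.

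Among 13 genes of proteins reported to bind the prion protein, 12 had enough UMIs in neurons, and 0 were at least 1.5-fold higher or lower in either comparison. Over all genes in neurons 13.3% were higher and 1.59% lower for P301S over WT, and 3.92% and 1.56% for P301S/EKO over EKO. Grm5, a glutamate receptor gene, was at 789 CPM in P301S and 987 in WT, and at 931 CPM in P301S/EKO and 1064 in EKO. Ncam1, a neural adhesion gene, was at 469.7 CPM in P301S and 395 in WT, and at 405 CPM in P301S/EKO and 463 in EKO. Fyn, a kinase gene, had ratios of 1.34 (1.09 to 1.66) and 1.04 (0.831 to 1.296). The list's median log2 ratio was 0.20 and -0.06. Outside neurons, against the shares just given for those nuclei, 0 of 12 were higher and 1 lower for P301S over WT, and 1 was higher and 0 lower for P301S/EKO over EKO.

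Likewise 0 of 12 genes of GPI anchoring and of prion protein shedding were past 1.5-fold in either comparison in neurons, against the same shares over all genes. Outside neurons 2 of the 12 were at least 1.5-fold higher and 1 lower for P301S over WT, beside 13.8% and 4.82% of all genes. For P301S/EKO over EKO there 0 were higher and 1 lower, beside 4.85% and 5.11%. Piga, an enzyme gene of GPI synthesis named here after its values were seen, was among those higher for P301S over WT, at 16.1 CPM in P301S and 9.21 in WT, and was the 1 lower for P301S/EKO over EKO, at 9.47 CPM in P301S/EKO and 18.2 in EKO. In neurons Adam10, the protease that sheds the prion protein, was at 27.6 CPM in P301S and 26.7 in WT. It was at 29.1 CPM in P301S/EKO and 27.7 in EKO. Pgap1, which remodels GPI anchors, had the highest ratio of the list in neurons for P301S over WT, 1.38 (1.15 to 1.64), and 1.04 (0.868 to 1.24) for P301S/EKO over EKO. The median log2 ratio of the list in neurons was 0.16 and -0.05. Of 16 general neuronal transcripts, 0 were at least 1.5-fold higher in neurons in either comparison, beside 13.3% and 3.92% of all genes. The 1 that was at least 1.5-fold lower, a direction taken by 1.59% of genes, was Nefl, a neurofilament gene, at 72.1 CPM in P301S and 127 in WT. In the other comparison Nefl was at 131 CPM in P301S/EKO and 104 in EKO. Outside neurons 0 of the 16 were higher and 2 lower for P301S over WT, beside 13.8% and 4.82% of all genes. For P301S/EKO over EKO 1 was higher and 0 lower there, beside 4.85% and 5.11%.

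Against all genes in neurons, 169 of the 11305 measured in both comparisons, or 1.49%, were at least 1.5-fold higher in both, Prnp among them. Its log2 ratios were 0.80 and 0.77, above 93.4% and 97.9% of genes. Ordered by the smaller of the log2 ratios, Prnp came at place 92. By class its place was 19 of 5481 genes in CA2 or CA3 neuron-like nuclei, 24 of 4810 in inhibitory neuron-like and 25 of 4251 in dentate granule neuron-like nuclei. Among the 7813 genes of the subicular or cortical excitatory class it was 28. It was 111 of 5706 in CA1 neuron-like, 85 of 3720 in microglia-like and 128 of 1294 in astrocyte-like nuclei.

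**Figure D5:**
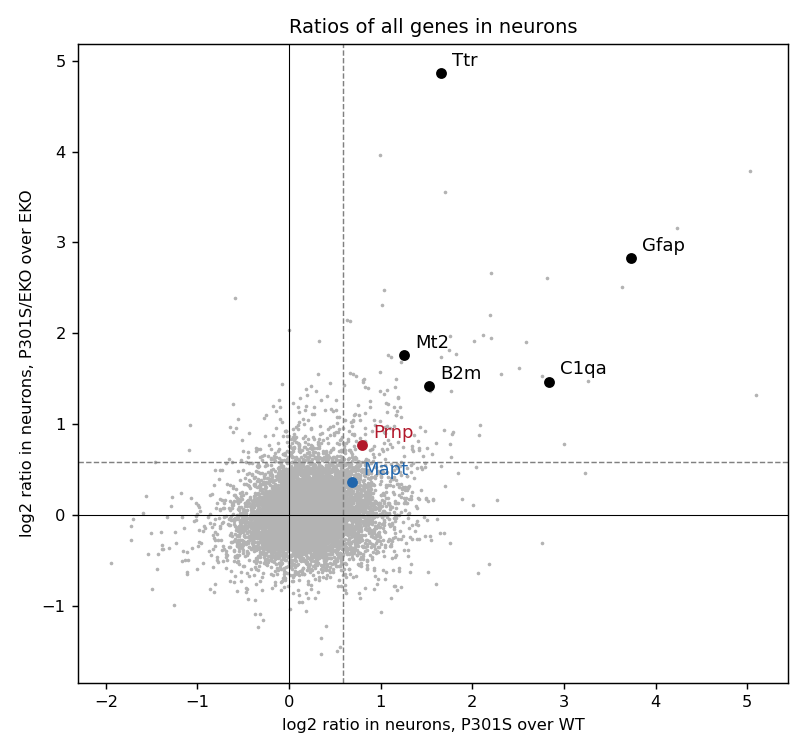
Log2 ratio of each gene in neurons for P301S over WT (x axis) and P301S/EKO over EKO (y axis), where 11305 genes are points, dashed lines mark 1.5-fold, and Prnp, Mapt and the genes highest over the classes are named. Prnp lies at 0.80 and 0.77, among the 169 genes that were at least 1.5-fold higher in both.

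Over the classes, 3281 genes could be compared in enough of them, and Prnp came at place 22 and Mapt at place 27 by the median of the smaller log2 ratio. The first 5 were Gfap, Ttr, B2m, C1qa and Mt2, with medians of 2.54, 1.84, 1.38, 1.32 and 1.22, against 0.52 for Prnp. Gfap, an astrocyte filament gene, was at 115 CPM in neurons of P301S/EKO, 263 in P301S, 16.1 in EKO and 19.8 in WT. Ttr, a choroid plexus gene, was at 235 CPM in neurons of P301S/EKO, 866 in P301S, 8.00 in EKO and 273 in WT, and EKO was the library with 0 choroid plexus epithelium-like nuclei.

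The genes whose levels went most like those of Prnp were sought over 49 points, each a class or cluster of 1 library, from 13 classes and clusters and 8327 genes. By Pearson's r of log2(CPM + 10) they were Ramp1 (0.67), Sirpa (0.67), Chpt1 (0.66), Gfap (0.65) and Ncan (0.64), and their Spearman's rho lay between 0.56 and 0.65. Points of 1 library share its depth and its free RNA, so these values are a description. Over all nuclei Ramp1 was at 64.8 CPM in P301S/EKO, 51.6 in P301S, 57.8 in EKO and 59.3 in WT, without the order of libraries that Prnp had.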

How the data were processed

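Raw UMI counts per gene and barcode were deposited by the authors. The submitters' processing notes name Cell Ranger, Seurat and mm10. Their versions, and whether intron reads were counted, are not given in these sources. A barcode was kept with 200 or more genes and no more than 5% of its UMIs from mitochondrial genes. Doublets were scored with scrublet (expected rate 0.06), whose own threshold called at most 1 nucleus a library, so the highest scores were removed at 0.8% per 1000 barcodes, which took 302 nuclei of P301S/EKO, 74 of P301S, 261 of EKO and 271 of WT. Nuclei of all libraries were clustered together (2000 variable genes without Prnp, Mapt or Apoe, 30 principal components, 15 neighbours, Leiden resolution 1) and named by marker sets. UMIs were summed per class and library as CPM. Levels carry exact Poisson intervals, ratios exact conditional binomial intervals, differences intervals combined from those of both levels, and shares exact Clopper-Pearson intervals, all at 95% and for counting error only. Genes with at least 50 UMIs over both libraries (20 for the genes of the lists) were compared, and with 1 library per genotype no test was made. The members and lists were chosen with earlier results of these data known. Named genes were those of the lists, at most 4 a list, and the 5 highest by each rank. The ratio step and the coverage of the ratio and difference intervals were tested on simulated Poisson counts of the CA1 neuron-like and microglia-like classes. The ranks, the free-RNA level and the split by class were not part of that test. The software was scanpy 1.11.5, with igraph 0.11.9 and scikit-learn 1.9.0, under Python 3.11.15 (scipy 1.17.1, numpy 2.4.6, pandas 2.3.3), and matplotlib 3.10.9 for plots.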

Additional observations from a re-analysis of the deposited data

How the results depend on the processing

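Of 245 class ratios recomputed under 12 alternatives, 9 planned and 3 chosen after seeing the data (nuclei of 1200 to 4000 UMIs, nuclei with pituitary UMIs left out, and free RNA subtracted without rescaling), 221 kept their direction and moved by less than counting error, 22 moved and 2 reversed. Median-of-ratios scaling gave P301S over WT 1.42 over all nuclei, 1.504 in neurons and 1.33 outside neurons. Subtracting free RNA and dividing by the share of RNA left gave 1.13 outside neurons for P301S over WT and left 3 classes at least 1.5-fold for P301S/EKO over EKO. It reversed P301S over WT in oligodendrocyte-like nuclei, to 0.873, and in microglia-like nuclei, to 0.823. Without the division these 2 ratios were 1.32 and 1.65, neurons had 1.89 for P301S over WT and 1.53 for P301S/EKO over EKO, nuclei outside neurons 1.03 for P301S/EKO over EKO, and again 3 classes were at least 1.5-fold there. No free-RNA level was defined over all nuclei, so the subtraction gives no value there. The cause of the other shifts was not tested. The labels carry no replicate numbers that pair libraries, and neither a paired fit nor a model with transgene and Apoe as separate terms was run. Depth limits the precursor, choroid plexus and Lamp5 or Ndnf classes most.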
